A study of Mus musculus with 4 samples.

Results

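Ocm-positive hair cells were 233 of the 3291 cells that passed a hair cell gate, and of 15416 cells of all kinds, in inner ear organoids grown from mouse embryonic stem cells. Cells with at least 1000 detected genes and at most 15% mitochondrial UMIs (unique molecular identifiers, each standing for 1 captured transcript) entered. The gate asked for at least 100 CPM of Otof and 200 CPM of Myo6, where CPM (counts per 1000000) is the gene's UMIs over all UMIs of the cell, times 1000000. Among gated cells, those chosen by their measured counts had at least 3 Ocm UMIs, fewer than 5 Bmp2 UMIs and fewer than 3 Agr3 UMIs. They are compared with the other gated hair cells, which met the same Bmp2 and Agr3 limits and had fewer than 3 Ocm UMIs. All cells came from 1 stem cell line, Atoh1-nGFP, in which nuclear GFP reports Atoh1, a basic helix-loop-helix factor without which hair cells do not form. The 4 groups, with 1 droplet library each, were organoids of day 16, organoids of day 20, and the bright and dim GFP sorts of day 21, called GFP high and GFP low below. The protocol describes sorting on GFP, but a GFP gate is named for the day 21 libraries alone. The labels call the material both cells and single nuclei, and they give neither the number of organoids pooled nor any replicate.

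Ocm encodes oncomodulin, a small EF-hand protein that binds calcium and belongs to the parvalbumin family. In the mature mouse inner ear it is known as a marker of cochlear outer hair cells, which amplify sound, and of hair cells of the striola, the central zone of the vestibular sensory patches. Hair cells turn the bending of their stereocilia into a receptor potential, and calcium buffers shape how that signal reaches transduction, potassium channels and synapses. Otof encodes otoferlin, the calcium sensor of hair cell exocytosis, and Myo6 encodes an unconventional myosin at the base of the bundle.

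The promoters of Ocm and of 3 genes that ran high beside it are shown because these genes stood high in the same cells. Each covers 250 bases before and 50 after the RefSeq transcription start (GRCm38.p6), and capitals mark the E-box letters CANNTG, the core that Atoh1 and related factors can bind. The windows are chr5:144050560-144050859 on the minus strand for Ocm, chr6:29916763-29917062 on the plus strand for Strip2, chr3:31902453-31902752 on the plus strand for Kcnmb2 and chr9:95637378-95637677 on the plus strand for Pcolce2. The RefSeq start of Ocm lay upstream of the span GENCODE M21 gives the gene, chr5:144019804-144026670, and which start these cells used was not tested.
Ocm: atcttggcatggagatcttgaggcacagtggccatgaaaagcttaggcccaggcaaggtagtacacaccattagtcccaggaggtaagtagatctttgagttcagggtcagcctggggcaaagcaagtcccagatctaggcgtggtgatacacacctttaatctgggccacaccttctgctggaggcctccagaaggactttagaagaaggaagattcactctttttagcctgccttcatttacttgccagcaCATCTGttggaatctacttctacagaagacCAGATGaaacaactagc
Strip2: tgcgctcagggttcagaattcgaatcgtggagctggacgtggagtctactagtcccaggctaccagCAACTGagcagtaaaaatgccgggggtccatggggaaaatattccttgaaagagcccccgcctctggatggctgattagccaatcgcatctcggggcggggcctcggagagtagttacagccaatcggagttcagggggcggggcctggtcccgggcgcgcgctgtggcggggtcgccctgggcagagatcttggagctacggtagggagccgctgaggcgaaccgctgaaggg
Kcnmb2: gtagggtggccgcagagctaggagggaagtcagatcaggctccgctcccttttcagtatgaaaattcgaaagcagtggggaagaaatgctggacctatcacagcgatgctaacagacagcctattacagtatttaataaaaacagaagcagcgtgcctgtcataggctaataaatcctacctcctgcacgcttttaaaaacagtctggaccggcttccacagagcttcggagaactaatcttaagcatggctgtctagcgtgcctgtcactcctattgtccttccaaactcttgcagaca
Pcolce2: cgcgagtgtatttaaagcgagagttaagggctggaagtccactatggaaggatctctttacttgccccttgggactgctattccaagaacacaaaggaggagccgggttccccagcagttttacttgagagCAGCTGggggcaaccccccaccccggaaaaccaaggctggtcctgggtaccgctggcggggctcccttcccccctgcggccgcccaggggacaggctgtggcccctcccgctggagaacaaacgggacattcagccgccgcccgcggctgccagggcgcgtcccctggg
An E-box matched 2 times in Ocm, both after the start, 1 time in Strip2, 1 time in Pcolce2 and 0 times in Kcnmb2. Of 32851 mouse promoters of this length, 72.3% held at least 1 match. None of the 4 held TAATTA, a homeodomain core found in 5.29% of promoters, or TATAAA, found in 13.6%, on either strand. These matches describe letters and not bound sites.

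In the order day 16, day 20, GFP high and GFP low, 3496, 4553, 3544 and 3823 cells passed the filters. The gate held 156, 128, 2324 and 683 of them. Median UMIs per Ocm-positive cell were 27053, 19212, 35507 and 31989, against 33928, 17290, 29921 and 24285 in the other gated hair cells. Median mitochondrial shares were 6.74%, 0.883%, 9.13% and 11.2%, against 3.35%, 1.58%, 5.85% and 5.87%. The share was thus higher in Ocm-positive cells of 3 libraries and lower at day 20, and its part in the results below was not tested. With a limit of 10% mitochondrial UMIs, GFP high kept 116 Ocm-positive cells and GFP low kept 10. Pairs of libraries shared 1 to 8 cell barcodes, none of them among the Ocm-positive cells. Intervals throughout are 95% intervals that cover counting error only, and with 1 library per group no difference has a replicate check and no p-value was computed.

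Ocm-positive cells were found in every library. Day 16 held 12 (7.69% of the gate, exact Clopper-Pearson interval 4.04 to 13.1) and day 20 held 9 (7.03%, 3.27 to 12.9). GFP high held 191 (8.22%, 7.13 to 9.41) and GFP low held 21 (3.07%, 1.91 to 4.66). The share was lower in GFP low than in GFP high beyond counting error. The gate, however, also held cells that the Bmp2 limit kept out of the choice. They were 134 of 2324 gated cells in GFP high and 205 of 683 in GFP low. Median depth of gated cells was 30999 and 25744 UMIs. The part of these 2 differences in the shares was not tested. Ocm UMIs per cell had a lowest value of 3 in each library, medians of 7, 7, 21 and 23, and highest values of 66, 71, 456 and 102. The largest single cell carried 34.2% and 37.8% of the summed Ocm UMIs at days 16 and 20, and 5.16% and 17.2% in the GFP high and GFP low sorts. Around the minimum, gated cells of GFP high within the Bmp2 and Agr3 limits with 1, 2, 3, 4 and 5 Ocm UMIs numbered 104, 27, 21, 6 and 3, while those of GFP low numbered 17, 4, 1, 0 and 2. Ocm was seldom found outside hair cells: among cells with no UMI of Otof, Pou4f3 or Myo7a, 0.0756%, 0%, 2.1% and 0.245% had 1 or more Ocm UMIs and none had 3. Those cells had median depths of 13878, 8716, 22545 and 20763 UMIs. In the other gated hair cells the share with 1 or 2 Ocm UMIs was 8.09%, 4.39%, 7.12% and 4.98%, above that level in each library.

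**Figure D1:**
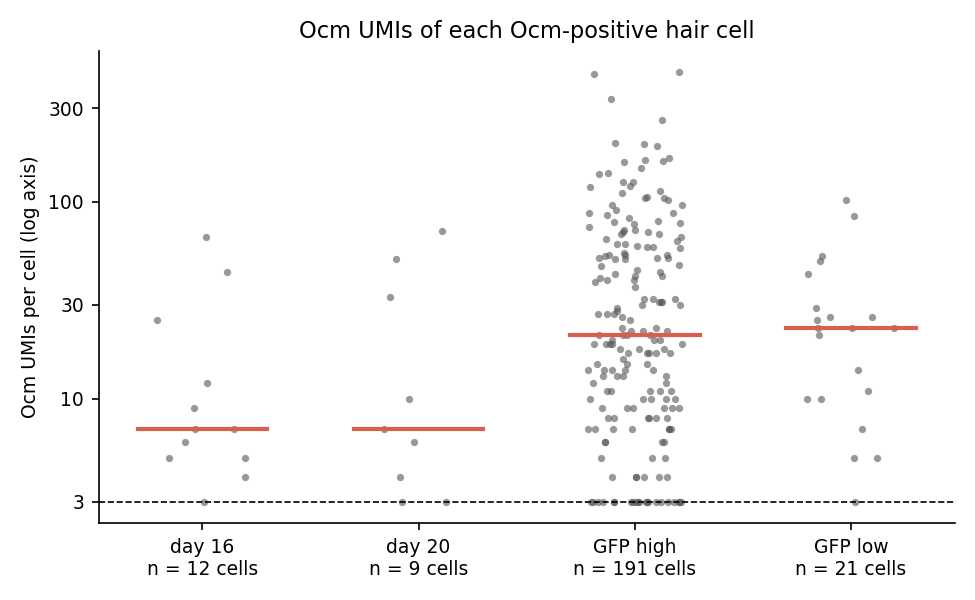
Ocm UMIs of each Ocm-positive hair cell (log axis) in the 4 libraries; points are cells, red lines are medians of 7, 7, 21 and 23, and the dashed line is the minimum of 3. Cells of GFP high reach 456 UMIs, and both earlier days stay under 100.

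Among the genes measured in day 21 cells, 494 of 9529 (5.18%) were at least 2-fold higher in Ocm-positive than in other gated hair cells of GFP high with an interval that excluded 1, and 691 (7.25%) were lower. In GFP low 434 of 9520 (4.56%) were higher and 601 (6.31%) were lower. Both libraries called 227 of 9101 genes higher (2.49%), 298 lower (3.27%) and 11 in opposite directions (0.121%). The shares of 2.49% and 3.27% apply beside each later count of list genes called in both libraries. A single call in a short list is near them. Genes entered with 10 CPM or more in either class and 10 or more UMIs over both, and a gene counted or called as higher or lower met this rule of size. Other statements of higher or lower compare the values printed. Ocm and the gate genes chose these cells from the same contrast, so every ratio here is a description. The 21 cells of GFP low make its calls fragile: when each gene's highest Ocm-positive cell was left out, a change that lowers the sums by construction, higher calls there went from 434 to 196 and lower calls from 601 to 1284. In simulated data, false calls were also more frequent for GFP low than for GFP high.

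The genes given as markers separated the classes to different degrees. Strip2, a component of the STRIPAK phosphatase and kinase assembly, stood at 6.1, 18.8, 306 and 196 CPM in Ocm-positive cells of day 16, day 20, GFP high and GFP low. It stood at 1.47, 0, 9.2 and 1.58 CPM in other gated hair cells. Strip2 stood above the others in each library but reached its high levels at day 21, by 33.2-fold in GFP high (30.2 to 36.6) and 124-fold in GFP low (73.9 to 224), while the day 16 and day 20 cells held few UMIs of it. Kcnmb2, an auxiliary subunit of BK potassium channels, stood at 189, 150, 235 and 248 CPM against 79.8, 29.8, 26.4 and 18.1 CPM. It was higher in Ocm-positive cells of all 4 libraries, by 8.92-fold in GFP high (8.31 to 9.57) and 13.7-fold in GFP low (11.1 to 16.9). Cldn14, a tight junction claudin whose loss causes deafness, stood at 198, 169, 176 and 85.4 CPM against 73.5, 78.3, 48.6 and 28.7 CPM. It was also higher in all 4, by 3.63-fold in GFP high (3.39 to 3.88) and 2.98-fold in GFP low (2.22 to 3.94). Otof, at 656 against 1299 CPM in GFP high and 543 against 897 CPM in GFP low, was lower in Ocm-positive cells, and Myo6, at 1274 against 1106 and 1081 against 776 CPM, was slightly higher. Neither gate gene passed the 2-fold limit.

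The 3 genes were often found in the same cell, and each was also common singly. Single shares of Strip2, Kcnmb2 and Cldn14 were 80.6%, 94.2% and 95.3% of Ocm-positive cells of GFP high. In GFP low they were 61.9%, 95.2% and 100%. Whether the genes met more often than these shares give was not tested. Strip2, Kcnmb2 and Cldn14 were all detected in 148 of 191 Ocm-positive cells of GFP high (77.5%, 70.9 to 83.2) and 13 of 21 of GFP low (61.9%, 38.4 to 81.9). At day 16 this held for 2 of 12 cells and at day 20 for 1 of 9, with Kcnmb2 and Cldn14 together in 10 and 5. Strip2 had 1 or more UMIs in 80.6% of Ocm-positive and 8.92% of other gated hair cells of GFP high. Thinned to 10000 UMIs per cell, which left out 1 and 26 shallower cells, the shares were 72.6% and 4.41%. In GFP high cells with no UMI of Otof, Pou4f3 or Myo7a, 2.1% had a Strip2 UMI (1.35% thinned).

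With the genes given as markers left out, the genes ranked highest in Ocm-positive cells over both day 21 libraries were Pcolce2, Paqr9, Sfxn5, B3galt5, Gm14207, Nrp2, Myom1, Slc17a6, Lbh, Calca, Pou4f2 and Ighm. They came from 102 genes called higher in both at 50 CPM or more. Paqr9, of the progestin and adipoQ receptor family, stood at 61, 18.8, 141 and 98 CPM against 6.74, 3.03, 4.36 and 4.33 CPM, 32.4-fold higher in GFP high (28.2 to 37.4). Pcolce2, an enhancer of procollagen processing, stood at 12.2, 12.5, 91.3 and 65.8 CPM against 8, 6.06, 3.78 and 1.08 CPM, 24.1-fold higher in GFP high (20.7 to 28.3). Paqr9 was well above the other hair cells at day 16 as well as day 21, whereas the gap in Pcolce2 was small before day 21. Pcolce2 of GFP low came from 7 of 21 cells, with 46.8% of its UMIs in 1 of them. Lbh, a transcription cofactor enriched in outer hair cells, stood at 134, 175, 301 and 298 CPM against 30.5, 33.3, 34.6 and 58.3 CPM and was higher in all 4 libraries. Ighm, the immunoglobulin heavy constant mu gene, stood at 64.1, 6.26, 725 and 696 CPM against 5.9, 20.2, 72.5 and 147 CPM, so it was higher at day 16 and day 21 but not at day 20. Slc17a6, the vesicular glutamate transporter VGLUT2, reached 107 against 20.2 CPM in GFP high. Its UMIs came from 82 of 191 cells there and from 4 of 21 in GFP low. Sfxn5, a sideroflexin of mitochondria, was narrower still, with 38 of 191 cells and 4 of 21, and in GFP low its log2 ratio of 3.09 turned to -0.77 with a limit of 10% mitochondrial UMIs.

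The remaining genes of that set had roles in signalling and differentiation. Calca, which encodes the calcitonin gene-related peptide, stood at 125, 138, 115 and 101 CPM against 27.4, 35.9, 22.5 and 17 CPM, steady over the 4 libraries. Pou4f2, a POU factor related to the hair cell factor Pou4f3, stood at 51.9, 31.3, 60.6 and 53.2 CPM against 5.9, 6.06, 8.19 and 10.3 CPM, also higher in all 4. Nrp2, a semaphorin co-receptor, reached 92.3 against 15.3 CPM in GFP high and 137 against 18.6 CPM in GFP low. B3galt5 (a galactosyltransferase), Myom1 (a protein of the sarcomere M-band) and the processed transcript Gm14207 were 7.08-fold, 10.9-fold and 7.14-fold higher in GFP high.

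By the same rank the lowest genes were Rspo3, Insl6, Eef1a2, Fam107a, Cdkn1c, Ccer2, Chst5, Dnajc5b, Zcchc12, Ly6e, Gsn and Pole, from 92 called lower in both at 50 CPM or more. Ccer2, a coiled-coil protein gene, stood at 281, 595, 525 and 63 CPM in Ocm-positive cells against 4794, 4319, 3831 and 1180 CPM in the others. It was lower in all 4 libraries, by 7.3-fold in GFP high and 18.7-fold in GFP low. Cdkn1c, the cyclin-dependent kinase inhibitor p57, stood at 21.4, 150, 84 and 43.4 CPM against 589, 949, 722 and 324 CPM and was also lower in all 4. Rspo3, a secreted amplifier of Wnt signalling, was at or near 0 in both classes at day 16 and stood at 5.63 against 90 CPM in GFP high and 9.8 against 177 CPM in GFP low. Gsn, the actin-severing protein gelsolin, stood at 94.5 against 897 CPM in GFP high and 192 against 1148 CPM in GFP low, where 69.3% of its UMIs came from 1 cell. Eef1a2, a translation elongation factor, stood at 19.7 against 171 CPM and 1.4 against 56.1 CPM. The other 7 were 6.54-fold to 10.6-fold lower in GFP high, and none of the 12 had a higher CPM in Ocm-positive cells of day 20.

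**Figure D2:**
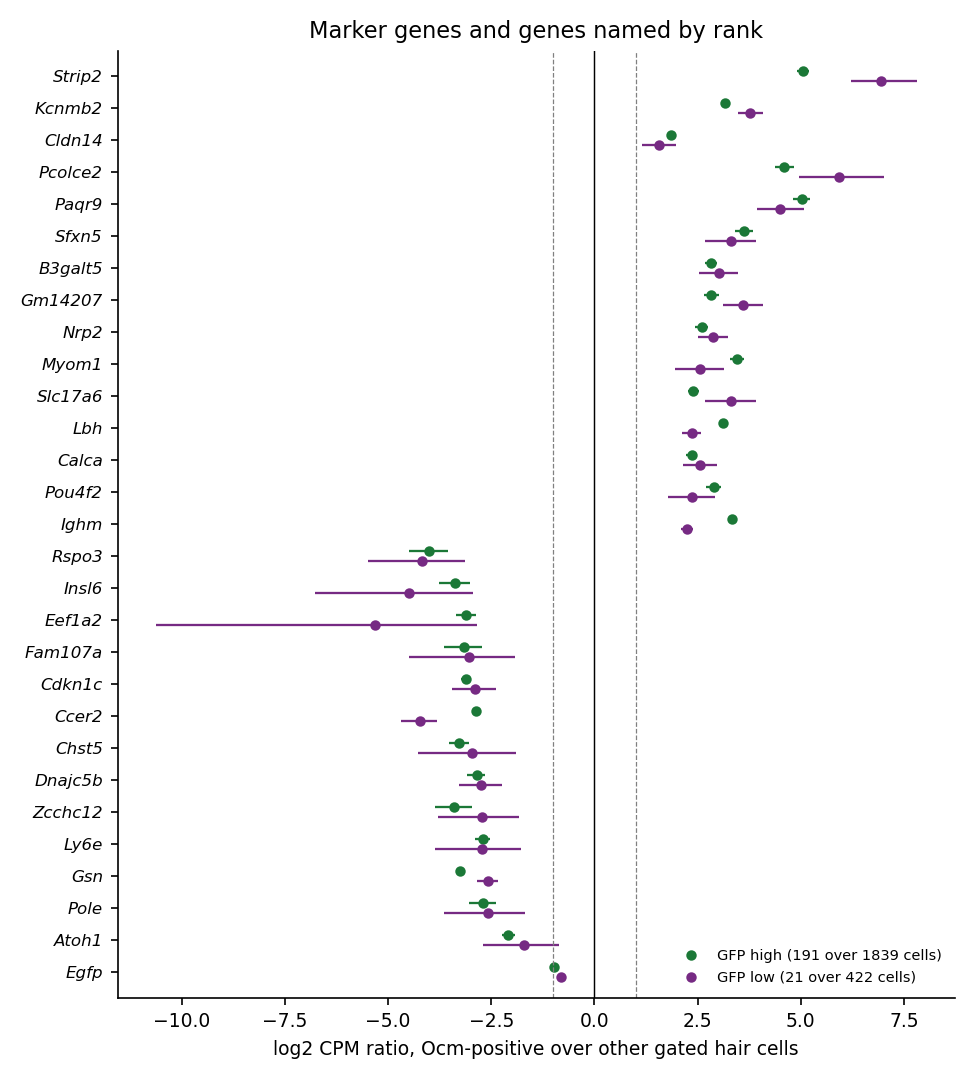
Log2 of the CPM ratio, with no pseudocount, of Ocm-positive over other gated hair cells for Strip2, Kcnmb2 and Cldn14, the 12 highest and 12 lowest genes, Atoh1 and Egfp, in GFP high (green) and GFP low (purple), with 95% counting intervals and dashed lines at 2-fold. Strip2 lies farthest to the right in GFP low, and intervals are wider in GFP low, which held 21 cells.

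Of the genes known from cochlear outer hair cells, 9 of 14 measured in both libraries (19 listed) were higher in Ocm-positive cells and 0 were lower. The list holds Ocm, which was higher because it chose the cells, and without Ocm the count was 8 of 13. That count and the medians that follow still hold 2 of the given markers, Strip2 and Cldn14. The list was also chosen with earlier results of these data known, so its count is a description. Over all genes 2.49% were called higher in both libraries. The median log2 ratio, of CPM plus 1 and without Ocm, was 1.90 in GFP high and 1.53 in GFP low, over the 14 measured in each, beside -0.05 and -0.03 over all genes. Besides Ocm, Strip2, Lbh and Cldn14, those higher were Sri, Kcnj13, Kcnn2, Bcl11b and Strc. Sri, the calcium-binding protein sorcin, stood at 94.6, 276, 260 and 175 CPM against 52, 97, 65.3 and 76.9 CPM. Strc, whose product stereocilin links outer hair cell stereocilia, stood at 88.5, 100, 181 and 160 CPM against 18.1, 26.3, 46 and 50.9 CPM. Both were higher in all 4 libraries. Bcl11b, a zinc finger factor, stood at 67.1, 0, 88.6 and 30.8 CPM against 34.7, 6.57, 11.7 and 5.91 CPM, at 0 at day 20 and higher elsewhere. Ikzf2, the outer hair cell factor Helios, passed in neither library, at 17.8 against 9.5 CPM in GFP high and 9.8 against 11.6 CPM in GFP low. Slc26a5, the motor protein prestin that defines mature outer hair cells, had 9 UMIs in 8 of 191 cells of GFP high (1.27 CPM, 0.58 to 2.41) and none in Ocm-positive cells of the other libraries, where the upper bounds were 11.3, 23.1 and 5.16 CPM.

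Genes known from inner hair cells, the main sensory transmitters of the cochlea, ran the other way in part, with 4 of 10 measured in both libraries lower and 1 higher. The medians were -1.55 over the 10 measured in GFP high and -0.78 over the 11 measured in GFP low. Tbx2, the factor that holds inner hair cell identity, stood at 134, 207, 44.7 and 74.2 CPM against 189, 181, 242 and 165 CPM, lower at day 21 but not at day 20. Shtn1, an actin-linked protein, was on opposite sides at the earlier days and at day 21: it stood at 1059 and 1040 CPM against 297 and 715 CPM at days 16 and 20, and at 175 and 225 CPM against 554 and 500 CPM at day 21. Dnajc5b, a cysteine string protein, and Rprm were the other 2 that were lower. Slc17a8, the glutamate transporter VGLUT3 that inner hair cells need, was lower in GFP high at 71.6 against 216 CPM, and stood at 115 against 216 CPM in GFP low. Fgf8, a signalling ligand, stood at 66.8 against 192 CPM in GFP high but 421 against 419 CPM at day 16. Slc7a14, a lysosomal transporter, was the 1 that was higher, at 76.5 against 8.78 CPM and 44.8 against 8.47 CPM. Calb2, the calcium buffer calretinin, passed in neither library.

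**Figure D3:**
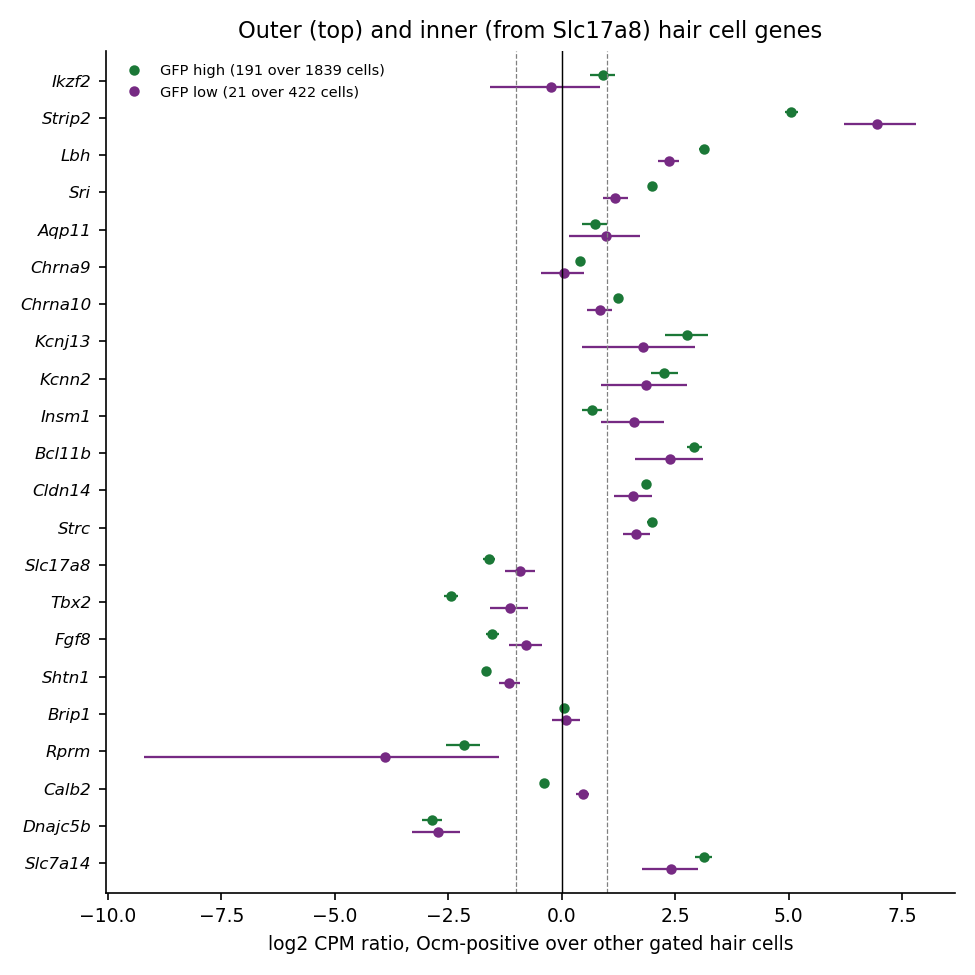
Log2 of the CPM ratio, with no pseudocount, of Ocm-positive over other gated hair cells for outer hair cell genes (Ikzf2 to Strc) and inner hair cell genes (Slc17a8 to Slc7a14) measured in both day 21 libraries, without Ocm and Otof, with 95% counting intervals and dashed lines at 2-fold. Strip2, Lbh and Bcl11b lie to the right in both libraries, and Tbx2, Shtn1 and Dnajc5b lie to the left.

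Vestibular lists were mixed. Of 13 striolar and type I genes measured in both libraries, Ocm and Chgb were higher and Cyp26b1, Cabp2 and Rprm were lower. Ocm was higher through the choice of cells, so the list without it had 1 higher and 3 lower of 12. Taken by library, GFP high had 5 of 14 higher, Ocm, Spp1, Atp2b2, Calb1 and Chgb, and 3 lower. GFP low had 2 of 13 higher, Ocm and Chgb, and 4 lower, with Spp1 among the 4. Chgb, chromogranin B of secretory granules, had 65.4% of its GFP low UMIs in 1 cell. Cyp26b1, the enzyme that clears retinoic acid from the striola, stood at 7.75 against 26.4 CPM in GFP high, with no UMI in the 21 cells of GFP low (upper bound 5.16 CPM) against 26.2 CPM. Atp2b2, the plasma membrane calcium pump of stereocilia, stood at 269, 276, 449 and 460 CPM against 111, 79.3, 178 and 294 CPM, at least 2-fold higher in GFP high alone of the day 21 libraries. Of 15 extrastriolar and type II genes, Anxa4, Sox2, Cib3 and Ecrg4 were lower and 0 were higher. Sox2, a progenitor factor that type II vestibular hair cells retain, stood at 45.8, 113, 96.2 and 72.8 CPM against 287, 280, 442 and 451 CPM and was lower in all 4 libraries.

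Of 23 hair cell transcription factors measured in both libraries, Barhl1, Isl1, Nr2f2 and Bcl11b were higher and Atoh1, Sox2, Tbx2 and Pax2 were lower. Atoh1 stood at 30.5, 113, 45.1 and 15.4 CPM against 270, 198, 191 and 49.9 CPM, lower in all 4 libraries. Its reporter transcript Egfp stood at 1721, 3959, 2621 and 873 CPM against 5461, 5983, 5186 and 1518 CPM, also lower in all 4, although by 1.98-fold and 1.74-fold at day 21, short of the limit. Barhl1, a homeodomain factor that hair cells need to survive, stood at 101, 269, 190 and 130 CPM against 119, 55.1, 65.8 and 19.6 CPM, higher from day 20 on. Isl1, a LIM homeodomain factor, stood at 51.9, 194, 99 and 150 CPM against 63.8, 33.3, 22.2 and 15.2 CPM, with the same course. Pou4f3 and Gfi1, which maintain hair cells, passed in neither library.

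Of 20 calcium buffers, sensors and pumps measured in both libraries, Ocm and Sri were higher and S100a1, S100a13, Cib3, Cabp2 and Slc8a1 were lower. Without Ocm, which chose the cells, 1 of 19 was higher and 5 were lower. S100a1, an EF-hand protein of hair cells, stood at 973, 2324, 1079 and 1276 CPM against 2286, 4412, 4615 and 4364 CPM. S100a13, of the same family, stood at 320, 1002, 854 and 595 CPM against 1337, 3738, 4398 and 5517 CPM. Both were lower in all 4 libraries. Pvalb, parvalbumin alpha and the nearest relative of oncomodulin, stood at 67.1, 714, 204 and 182 CPM against 642, 904, 916 and 220 CPM, so its gap was wide at day 16 and in GFP high and narrow at day 20 and in GFP low. Cib3, a partner of the transduction channel in vestibular hair cells, stood at 15.3, 0, 54 and 157 CPM against 50.1, 151, 574 and 686 CPM. In GFP low 111 of its 112 UMIs came from 1 Ocm-positive cell.

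Of 16 potassium and HCN channel genes measured in both, 5 were higher. Besides Kcnmb2, those higher were Kcnj13, Kcnn2, Kcnab1 and Hcn2. Kcnj13, an inward rectifier, came from 3 of 21 cells of GFP low, where its log2 ratio of 1.52 turned to -0.19 in cells thinned to 10000 UMIs. Kcnab1, a beta subunit of voltage-gated channels, stood at 30.5, 81.4, 232 and 276 CPM against 4.63, 14.7, 27.3 and 66.3 CPM, higher in all 4 libraries. Kcnn2, the SK2 channel that acts with the efferent acetylcholine receptor, stood at 12.2, 62.6, 22.7 and 18.2 CPM against 5.47, 4.55, 4.72 and 5.02 CPM. Kcnmb4, another BK subunit, was lower, at 10 against 38.4 CPM in GFP high. Of the receptor subunits that efferent fibres address, Chrna10 stood at 247 against 104 CPM in GFP high and 172 against 96.7 CPM in GFP low, and Chrna9 at 129 against 96.9 CPM and 58.8 against 57.2 CPM, so Chrna10 passed in GFP high only and Chrna9 in neither. At the ribbon synapse 1 of 20 genes was higher and 0 were lower, beside 2.49% and 3.27% over all genes. The 1 was Cacna1d, the calcium channel that triggers release, at 233 against 88.8 CPM and 202 against 92.8 CPM.

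Lists of the shared machinery of hair cells had few calls in both libraries. Over all genes 2.49% were called higher and 3.27% lower in both, so a call or none in lists of this size is near that share. None of 10 core hair cell genes was called in both, although Pvalb was called lower in GFP high and Cib2 higher in GFP low. Espn, which bundles stereociliary actin, stood at 1703 against 1642 CPM in GFP high and 1919 against 2442 CPM in GFP low. Of 31 bundle genes Strc and Grxcr2 were higher and 0 were lower. Grxcr2, a regulator of stereocilia growth, stood at 638, 783, 502 and 445 CPM against 113, 154, 157 and 171 CPM, higher in all 4 libraries. Of 12 transduction genes only Cib3 was called in both. Tmc1, the pore of the mature channel, stood at 104 against 101 CPM and 71.4 against 135 CPM.

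Genes of the motile cilium and kinocilium, the single true cilium that cochlear hair cells lose as they mature, were lower in 6 of 25 and higher in 0. The medians were -0.59 and -0.45. Those lower were Dnah5, Dnah10, Tekt4, Cfap53, Dnali1 and Tubb4b. Dnah5, an axonemal dynein, stood at 25.9 against 123 CPM in GFP high and 40.6 against 136 CPM in GFP low, and Tubb4b, a ciliary tubulin, at 403 against 1081 CPM and 329 against 841 CPM. Of 13 claudin and junction genes Cldn14 was higher while Cldn3, Cldn6 and Cldn7 were lower. Cldn3 stood at 33.6, 50.1, 25.8 and 14 CPM against 217, 129, 119 and 55.3 CPM.

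Among Notch genes, which set apart hair cells and supporting cells, 2 of 14 were higher and 1 lower. Over all genes these shares were 2.49% and 3.27%. Dll4, a ligand, stood at 25.4 against 2.29 CPM and 19.6 against 1.97 CPM, and Lfng, a fringe that modifies the receptor, at 6.2 against 53.4 CPM and 4.2 against 38.8 CPM. Of 18 genes of oxidative phosphorylation, Cycs and Ckmt1 were higher and 0 were lower, with medians of 0.41 and 0.36. Cycs, cytochrome c, stood at 766, 658, 1079 and 838 CPM against 544, 483, 383 and 313 CPM. Of 13 dissociation and stress genes, Fos and Junb were lower. The metallothioneins Mt1 and Mt2, metal-binding proteins named here after their values were seen, were higher at day 21. Mt1 stood at 967, 532, 2024 and 4231 CPM against 343, 746, 625 and 1229 CPM. The mitochondrial share was also higher in these cells at day 21, as given above, and its part was not tested.

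By summed CPM, markers of other cell types were below the other gated hair cells for supporting and Merkel cells and near level for neurons. For Merkel cells the gap was mostly that of Ccer2. The sums were above them at day 21 for mesenchyme, with Dcn most of the sum, and in GFP high alone for epidermis. The summed level of 15 supporting cell markers was 27.5, 43.8, 91 and 58.8 CPM over the 4 libraries, against 132, 134, 231 and 145 CPM in other gated hair cells, and 10, 12, 0 and 5 of the markers were at 0. The 8 mesenchyme markers summed to 88.5, 56.4, 91.1 and 42 CPM against 449, 467, 48.1 and 20.4 CPM, so they were above the other hair cells at day 21, where Dcn made up 74.5 and 30.8 CPM. Dcn of GFP low had 72.7% of its UMIs in 1 cell. Col1a1 was called lower in GFP high, and 4 of the 8 markers were at 0 in Ocm-positive cells of GFP low. The 8 Merkel cell markers summed to 314, 664, 591 and 157 CPM against 5005, 4389, 3910 and 1270 CPM. Most of each sum was Ccer2, except in Ocm-positive cells of GFP low. Ccer2 was the only Merkel marker called lower, among 4 measured in GFP high and 3 in GFP low. The neuron markers summed to 1852, 1334, 1069 and 1612 CPM against 2069, 1169, 1063 and 1486 CPM. In cells with no UMI of Otof, Pou4f3 or Myo7a the neuron markers summed to 3727, 2173, 2015 and 3262 CPM. By gene, 5 of 9 neuron markers were called higher in GFP low, Tubb3, Elavl3, Elavl4, Dcx and Neurod1, with a median log2 ratio of 1.02. Most UMIs of the first 4 came from 1 cell there, and most of Neurod1 from another, both among the highest doublet scores. In GFP high 0 of 4 were higher and 1 was lower. The 6 epidermis markers summed to 33.6, 25.1, 50.2 and 18.2 CPM against 44.4, 47.5, 31.4 and 66 CPM. Among them Krt5 had a log2 ratio of 2.88 in GFP high, which turned to -0.80 with its highest cell left out. The part of these markers in the results was not tested. Of the highest doublet scores, 0, 0, 11 and 2 fell among the 12, 9, 191 and 21 Ocm-positive cells. Among the 136, 114, 1839 and 422 other gated hair cells there were 9, 7, 51 and 18. The share was thus higher in Ocm-positive cells of GFP high and GFP low, and why was not tested. Doublets were kept, as the choice of cells asked.

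Within GFP high, some genes differed step by step with the Ocm count, which is the value that chose the cells, and others did not. Cells with 0, 1 to 2, 3 to 9, 10 to 29 and 30 or more Ocm UMIs numbered 1708, 131, 53, 57 and 81, with median depths of 29854, 30474, 33869, 34819 and 37432 UMIs. Across those 5 steps Strip2 stood at 7.24, 34.1, 133, 196 and 472 CPM, and Paqr9 at 4.16, 6.92, 55.1, 99 and 217 CPM. Both were higher at every step, whereas Kcnmb2, at 23.4, 63.7, 173, 237 and 269 CPM, differed little between the last 2. In the opposite direction Pvalb stood at 936, 661, 413, 160 and 111 CPM and Atoh1 at 198, 106, 69.7, 51.7 and 26.9 CPM. S100a13 stood at 4408, 4265, 1387, 681 and 657 CPM, so it was near level up to 2 Ocm UMIs and lower from 3 on. Espn stood at 1624, 1861, 1574, 1699 and 1778 CPM, close to level. Spp1, the secreted protein osteopontin, stood at 464, 317, 218, 907 and 2913 CPM, lowest in cells just past the minimum and highest in those with the most Ocm. Mt1 peaked in the step of 3 to 9 UMIs, at 2817 CPM. Cib3 stood at 592, 352, 91.3, 22.9 and 51.9 CPM, lowest in the fourth step.

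**Figure D4:**
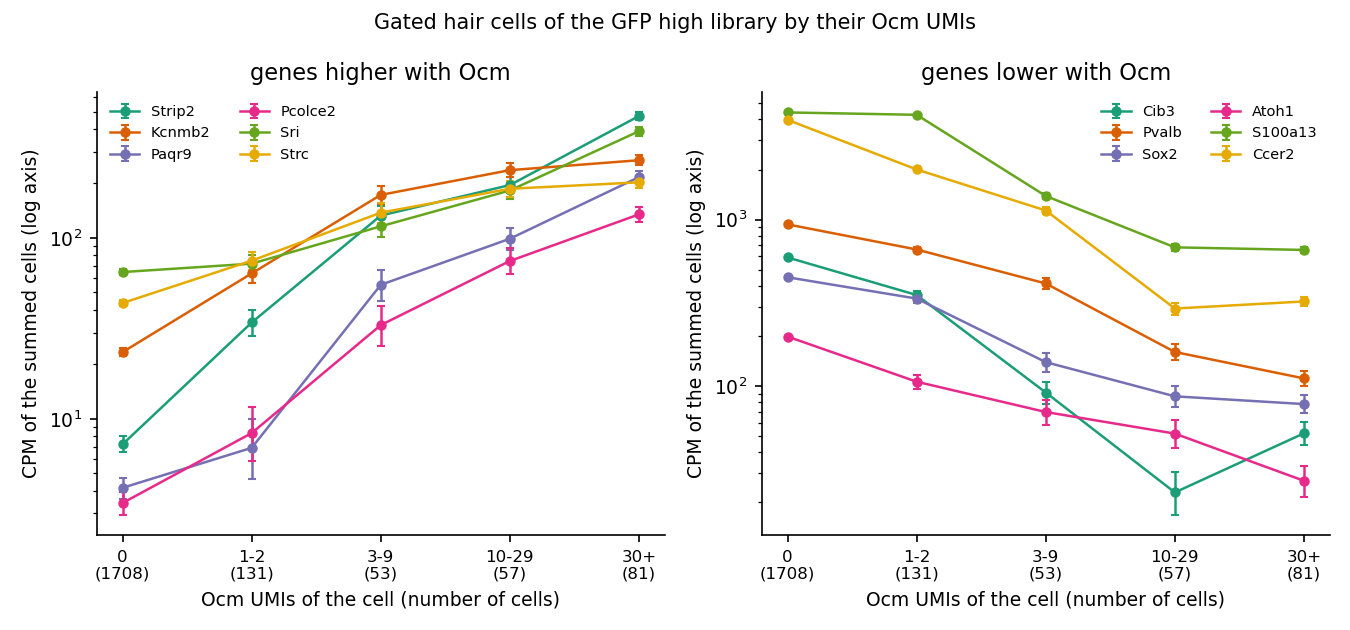
CPM (log axis) of 12 genes in gated hair cells of GFP high summed by their Ocm UMIs, with exact Poisson 95% intervals and the number of cells under each step. Strip2 climbs from 7.24 to 472 CPM on the left, and Atoh1 declines from 198 to 26.9 CPM on the right.

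Strip2 and Ocm did not mark exactly the same cells. Of the 191 Ocm-positive cells of GFP high, 37 had no Strip2 UMI, 19 had 1 to 2 and 135 had 3 or more. Pvalb stood at 605, 308 and 95.4 CPM in these groups, and Ighm at 260, 323 and 886 CPM. Conversely, 34 other gated hair cells had no Ocm UMI and 3 or more Strip2 UMIs. They held Lbh at 310 CPM and Kcnab1 at 202 CPM, near the Ocm-positive cells, but Paqr9 at 12.4 CPM and S100a13 at 2879 CPM, nearer to the rest. Some Ocm-expressing cells also lay below the Otof limit. Under 100 CPM of Otof, 47 cells of GFP high and 29 of GFP low had 3 or more Ocm UMIs. Their Myo6 was within the gate, and their class set no Bmp2 or Agr3 limit. Some may thus have been barred whatever their Otof, and how many was not tested. In those 47, Strip2 stood at 213 CPM, Kcnmb2 at 231 CPM, Paqr9 at 210 CPM and Cib3 at 4.75 CPM. Set against those 47, Ocm-positive cells had 173 of 9514 genes higher (1.82%) and 428 lower (4.5%). The part of the differing Bmp2 and Agr3 rule in these counts was not tested.

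Against other hair cell classes of GFP high, Ocm-positive cells differed in the fewest genes from the 134 gated cells with 5 or more Bmp2 UMIs. That comparison called 201 of 9333 genes higher (2.15%) and 356 lower (3.81%). For cells with 3 or more Cib3 UMIs the counts were 533 (5.59%) and 720 (7.55%) of 9531. For cells with 3 or more Grp and fewer than 3 Cib3 UMIs they were 986 (10.3%) and 965 (10%) of 9613. These classes differ in size and depth, at 134, 1145 and 323 cells. They also differ in rule: the Cib3 and Grp classes had fewer than 3 Ocm UMIs, and the Bmp2 class had no Ocm limit. The part of these differences in the counts was not tested. Kcnab1 stood at 232 CPM in Ocm-positive and 242 CPM in Bmp2-positive cells, Ighm at 725 and 514 CPM and Atp2b2 at 449 and 514 CPM, none of them called. Strip2 at 306 against 80.8 CPM was higher in Ocm-positive cells, and Cib3 at 54 against 612 CPM was lower. Of the 134 Bmp2-positive cells, 25 also had 3 or more Ocm UMIs.

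Days 16 and 20 held 12 and 9 Ocm-positive cells, too few for calls, so their values stand alone. Of the 12 genes ranked highest at day 21, 11 were higher in Ocm-positive cells at day 16 and 10 at day 20, with intervals excluding 1 for 10 and 5. Over all measured genes 12.6% at day 16 and 6.35% at day 20 were higher with such an interval. Of the 12 ranked lowest, 11 and 12 were lower, with such intervals for 9 and 9, beside 12.6% and 5.83% over all genes. Strip2, Sfxn5 and Pcolce2 stood at 0 to 18.8 CPM in Ocm-positive cells of both days.

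**Figure D5:**
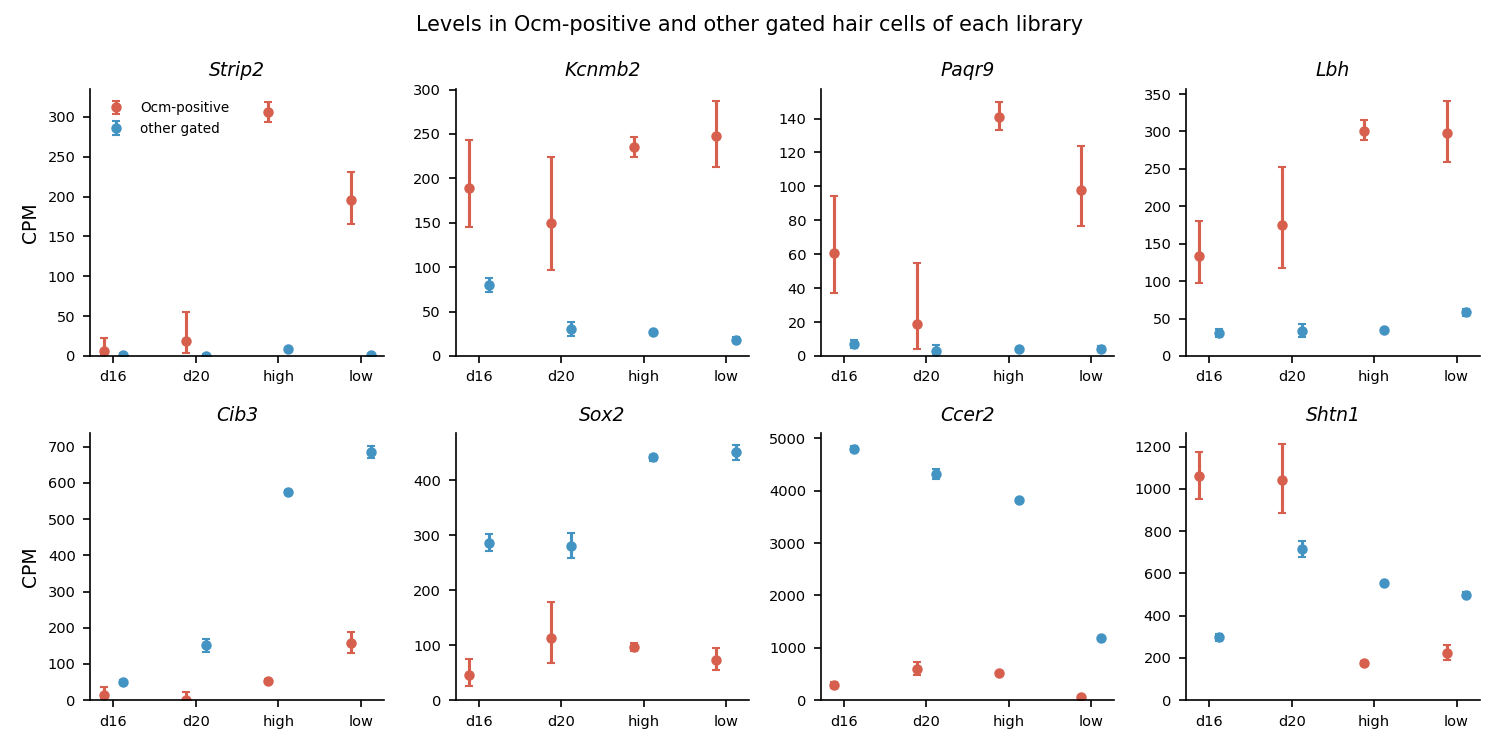
CPM of 8 genes in Ocm-positive (red) and other gated hair cells (blue) of day 16, day 20, GFP high and GFP low, with exact Poisson 95% intervals. Kcnmb2 and Lbh are higher in red in all 4 libraries, Strip2 is low in both classes at days 16 and 20 and far apart at day 21, and Shtn1 is higher in red at day 16 (1059 against 297 CPM) and lower at day 21.

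Between the GFP gates, 347 of 9335 genes (3.72%) were higher and 316 (3.39%) lower in Ocm-positive cells of GFP high than of GFP low. Within the other gated hair cells 256 of 9445 (2.71%) were higher and 118 (1.25%) lower. Egfp was 3-fold higher in Ocm-positive cells of GFP high (2.77 to 3.26) and 3.42-fold higher in the others (3.36 to 3.47), and Atoh1 2.93-fold (1.61 to 5.92) and 3.82-fold (3.5 to 4.19). The sort was made on GFP, so the direction of Egfp was set in advance, and Atoh1 went the same way in both classes. By rank Apoe, Mogat1, Cryab, BC030867, Ccer2, Efna5, Scn3b and Rasd2 were highest in GFP high. Ccer2 was 8.34-fold higher (6.22 to 11.4) in Ocm-positive and 3.25-fold in other gated hair cells, and BC030867 8.73-fold and 7.95-fold. Cryab, a small heat shock crystallin, stood at 353 against 35 CPM. Apoe, a lipid carrier, stood at 53.1 against 4.2 CPM, but 47.5% of its GFP high UMIs came from 1 cell, and its log2 ratio turned from 3.38 to -0.15 without the highest doublet scores.

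The lowest by rank were Tubb3, Crabp1, Elavl4, Dcx, Stmn2, Nnat, Zdbf2 and Lce6a, and for the first 7 most UMIs of GFP low came from 1 cell. That cell held 103608 UMIs, 21 of them Ocm, and was among the highest doublet scores. It carried 192 of the 203 Tubb3 UMIs, 41 of the 44 Crabp1 UMIs and 91 of the 117 Nnat UMIs of the 21 cells, and also 111 of the 112 Cib3 UMIs. The remaining 20 cells held 11 Tubb3, 3 Crabp1 and 26 Nnat UMIs, so the level of these genes in GFP low is mostly that of 1 cell. Without the highest doublet scores the log2 ratios of Dcx, Elavl4 and Zdbf2 turned from -3.59, -4.67 and -3.08 to 0.76, 1.17 and 0.48, and that of Cib3 from -1.52 to 4.31. Lce6a, a late cornified envelope gene, came from 11 of 21 cells, at 99.4 against 10.7 CPM. Ocm itself stood at 1246 CPM in GFP high and 831 CPM in GFP low, and Kcnmb2 and Lbh were close to level between the gates.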

How the data were processed

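Single-cell RNA was measured in 4 droplet libraries from organoids of day 16, day 20 and day 21, the last sorted into GFP high and GFP low. Each deposited matrix gives raw, unnormalised UMI counts, which the authors made with Cell Ranger 6.1.2, per the file headers. The submitters' processing notes name version 6.1.0 of it, along with Seurat 4.0.6 and the mm10 build, and give no use for Seurat. Each matrix has 32289 genes, and 78 symbols belong to more than 1 of them.

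The members and the gene lists were chosen with earlier results of these data known. Within each library, counts were added up by class of cell and scaled to CPM of that class. Ratios carry exact conditional binomial 95% intervals, levels exact Poisson intervals and shares Clopper-Pearson intervals. A gene was called at a ratio of 2 or more either way with an interval excluding 1, given 10 CPM in either class, 10 UMIs over both and at least 20 cells in each class. Log2 ratios and list medians used CPM plus 1. Intervals treat the summed UMIs as independent and leave out the spread between cells, so calls that rest on few cells are less secure than their intervals show.

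Named genes were the markers, Atoh1 and Egfp; the 12 highest and 12 lowest of genes called in both day 21 libraries at 50 CPM or more, by the smaller absolute log2 ratio; the 8 highest and 8 lowest between the GFP gates; and up to 8 members of each of 31 lists with the largest ratio in GFP high, plus those at 200 CPM or more in the members. Mitochondrial and ribosomal protein genes were left out of the ranked sets. So were the markers, Atoh1 and Egfp in the ranking over other hair cells, which the rule as written does not say. A gene that the rule names is not reported here. Tmc1, Ikzf2, Slc26a5, Dnali1, Mt1 and Mt2 were named after their values were seen. Gene spans are those of GENCODE M21, which held 450 of 453 named or listed genes, and promoters those of RefSeq on GRCm38.p6.

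Doublets were scored with Scrublet in Scanpy 1.11.5 and left out only in an alternative, at 0.8% of barcodes per 1000. Other alternatives changed the Ocm, gate, gene, mitochondrial and depth limits, the scaling (TMM, edgeR 4.0.16 in R 4.3.3), the CPM minimum and the ratio. Totals without mitochondrial UMIs, and each gene's highest member cell left out, were added after seeing the data. Calling was tested on simulated data, where false calls in GFP low and between the gates exceeded the limit set at first, and that limit was loosened after this was seen. Scripts used scipy 1.17.1, pandas 2.3.3, numpy 2.4.6 and matplotlib 3.10.9 under Python 3.11.15.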

Additional observations from a re-analysis of the deposited data

Results flagged for a closer look

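For 3 of the genes listed or named, among the 11 called in opposite directions over all genes, the difference between Ocm-positive and other gated hair cells had opposite directions in the 2 day 21 libraries, and the difference between libraries was not tested. Spp1 had a log2 ratio of 1.86 in GFP high, at 1643 against 453 CPM, and -1.75 in GFP low, at 393 against 1323 CPM. It was detected in 92 of 191 and 8 of 21 Ocm-positive cells, with 6.27% and 42% of its UMIs in the highest cell. Apoe had a log2 ratio of 1.35 in GFP high and -1.83 in GFP low, where 26 of 191 and 3 of 21 cells had a UMI. Without the highest Scrublet scores its GFP high value was -2.36, so the directions were no longer opposite. Krt5, a basal keratin, had 2.88 and -2.81, and 97.5% of its GFP high UMIs came from 1 cell. Without the highest Scrublet scores Krt5 had -0.11 in GFP high and 0.32 in GFP low.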

How the results depend on the processing

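No paired analysis was possible because each group holds 1 library and the labels give no pairing of libraries. The day 20 over day 16 comparison gave no calls under any setting, since day 20 held at most 14 members. Of the genes named, 59 of 89 called in GFP high, 42 of 89 called in GFP low and 11 of 36 called between the gates within members were called under every alternative run. TMM moved the median of all genes from -0.05 to -0.00 in GFP high, from -0.03 to -0.04 in GFP low and from 0.00 to 0.04 between the gates. Ocm-positive cells gave 7098532 UMIs in GFP high, 714466 in GFP low, 327706 at day 16 and 159654 at day 20, and genes under 10 UMIs over both classes could not be called.

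An Ocm minimum of 1 UMI gave 23, 14, 322 and 42 members at day 16, day 20, GFP high and GFP low, thinning gave 5 at day 20, and a limit of 10% mitochondrial UMIs gave 116 in GFP high and 10 in GFP low. Higher calls in GFP high were 225 at 50 CPM, 1120 with no minimum, 1000 at a ratio of 1.5 and 234 at a ratio of 3. Lower calls there were 399 with an Ocm minimum of 1 UMI, and 218, 1718, 1323 and 355 in the same order. In GFP low, higher calls were 159 at 50 CPM, 843 at a ratio of 1.5, 193 at a ratio of 3 and 196 with each gene's highest member cell left out, an alternative chosen after seeing the data. Lower calls were 391 with an Ocm minimum of 1 UMI, 150, 974, 337 and 1284. Between the gates within members, higher calls were 208 in thinned cells, 79 at 50 CPM, 592 at a ratio of 1.5, 185 at a ratio of 3 and 675 with the highest cells left out. Lower calls were 209 with an Ocm minimum of 1 UMI, 63 at 50 CPM, 528 with no minimum, 559 at a ratio of 1.5, 148 at a ratio of 3 and 75 with the highest cells left out. Leaving out the highest member cell lowers member sums, on both sides in the comparison of gates, by construction. Stricter or looser ratios and minima change the counts by construction, and the cause of the other moves was not tested.

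These log2 ratios changed sign. Over other gated hair cells of GFP high, leaving out the highest Scrublet scores gave -2.36 for Apoe and -0.11 for Krt5, and leaving out cells above the 95th percentile of UMIs, or the highest cell, gave -0.80 for Krt5. In GFP low, leaving out the highest Scrublet scores gave -0.84 for Crabp1, -1.64 for Dcx, -2.47 for Elavl4, -1.53 for Tubb3, -1.20 for Zdbf2 and 0.32 for Krt5. Leaving out cells above the 95th percentile of UMIs gave -0.40 for Crabp1, -0.02 for Dcx, -1.58 for Nnat, -0.97 for Tubb3 and -0.75 for Zdbf2. Leaving out the highest cell gave -0.97 for Crabp1, -0.44 for Dcx, -2.01 for Nnat, -1.16 for Stmn2, -1.75 for Tubb3 and -0.96 for Zdbf2. Thinning gave -1.40 for Dcx, -0.19 for Kcnj13, -0.60 for Tubb3 and -1.44 for Zdbf2, and the 10% mitochondrial limit gave -0.77 for Sfxn5. Between the gates, leaving out the highest Scrublet scores gave -0.15 for Apoe, 0.03 for Chgb, 4.31 for Cib3, 0.76 for Dcx, 1.17 for Elavl4, -0.88 for Krt5 and 0.48 for Zdbf2. Thinning gave 5.49 for Cib3, 0.09 for Dcx, -0.52 for Ecrg4, -1.84 for Fos, 0.84 for Gsn, -1.11 for Kcnn2 and 0.96 for Zdbf2. Leaving out cells above the 95th percentile gave 3.93 for Cib3, 0.10 for Gsn and -0.85 for Krt5, and leaving out the highest cell gave 0.14 for Chgb, 4.13 for Cib3 and 0.47 for Gsn. The cause of these changes was not tested, except that leaving out cells lowers the sums by construction.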
